A study of Sus scrofa with 6 samples.

Results

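The genes described here encode the ion channels and calcium handling proteins that set the tone of vascular smooth muscle: KCNMA1, KCNMB1, KCNJ8, ABCC9, CACNA1C, RYR2, ITPR1, ATP2B4, PLN and ATP2A2. Members were the rows of the deposited expression table whose gene name is 1 of these 10 symbols, and 8 of 30477 genes were found in this way. CACNA1C carried no symbol of its own in the table, and 2 gene models of it were found, ENSSSCG00000041764 by its identifier in a gene name table and ENSSSCG00000027725 by its description. They are given beside the 8 members. No row was found for PLN, which is therefore not analysed here.

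Total RNA was sequenced from the abdominal aorta of male Wuzhishan miniature pigs, with 3 pigs on a normal chow (NC) diet and 3 pigs on a diet rich in fat, cholesterol and fructose (HFCF) for 6 months. Each library is labelled with its diet and a number, read here as 1 pig, and the study kept 5 pigs per group. The labels give an age of 3 to 4 months, whereas the methods give 6 to 7 months at acquisition. The HFCF diet is used to induce atherosclerosis, and whole vessel wall was extracted, so each value is a mixture of all cells of the wall.

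Contraction of arterial smooth muscle follows the calcium concentration of the cytosol. Calcium enters through the L-type channel and is released from the sarcoplasmic reticulum by ryanodine and inositol trisphosphate receptors. Pumps of the reticulum and of the plasma membrane remove it again. Potassium channels oppose this by polarizing the membrane: the large-conductance (BK) channel opens on calcium and depolarization, and the ATP-sensitive (KATP) channel responds to metabolic state.

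With FPKM as deposited, transcripts of the accessory subunit of the BK channel and of the L-type channel were called lower in the HFCF group. No call was made on this scale for the BK pore, the reticulum channels, the pumps or the KATP channel. KCNMA1, ATP2B4 and KCNJ8 were called lower under other scalings, and the call of 1 CACNA1C model was lost when any 1 pig was left out. By limma with Benjamini-Hochberg adjustment over 15384 genes, 1 of the 8 members, KCNMB1, passed an adjusted p-value of 0.05, in the lower direction, and 0 passed in the higher direction. At an unadjusted p-value under 0.05 the counts were 3 lower and 0 higher. At an adjusted p-value under 0.05, 6.16% of all tested genes were called lower and 22.8% higher. The share of all genes at the unadjusted level is not given here, so the unadjusted counts have no background. Both CACNA1C models were also called lower, which makes 3 of 10 rows, but these models stand for the same gene. All 3 HFCF values lay below all 3 NC values in 3 of the 8 members, KCNMB1, KCNMA1 and ATP2B4, against 12.1% of all genes. The same held in 5 of the 10 rows, which count CACNA1C by each of its models and are not set against that share. No member lay wholly higher in the HFCF group, against 36.1% of all genes. In bulk tissue, fewer smooth muscle cells and less RNA per cell cannot be told apart.

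FPKM, fragments scaled to exon length and to the mapped reads of the library, is a share of each library, and the median log2 fold change (HFCF against NC) of all tested genes was 0.32 rather than 0. For the 8 members the median log2 fold change was −0.38, or −0.70 relative to all genes, and 7 of the 8 estimates were negative. Median-ratio scaling moved the median of all genes to −0.01 and that of the members to −0.73, quantile normalization to −0.07 and −0.70, and rescaling to TPM, in which every library has the same total, to 0.07 and −0.64. Median-ratio scaling and TPM divide each library by 1 factor, which shifts all genes nearly alike. The distance of the members from all genes is thus kept by construction in both. Quantile normalization can change the distance but keeps the order of genes within each library, and the members stood lower there too. Since the members were chosen with earlier results of these data known, their position is described and not tested. The number called moved with the scaling, to 4 of 8 with median-ratio scaling or quantile normalization and 3 of 8 with TPM. Lower calls over all genes rose as well, from 948 of 15384 as deposited to 1982 of 15360 with median-ratio scaling.

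**Figure D1:**
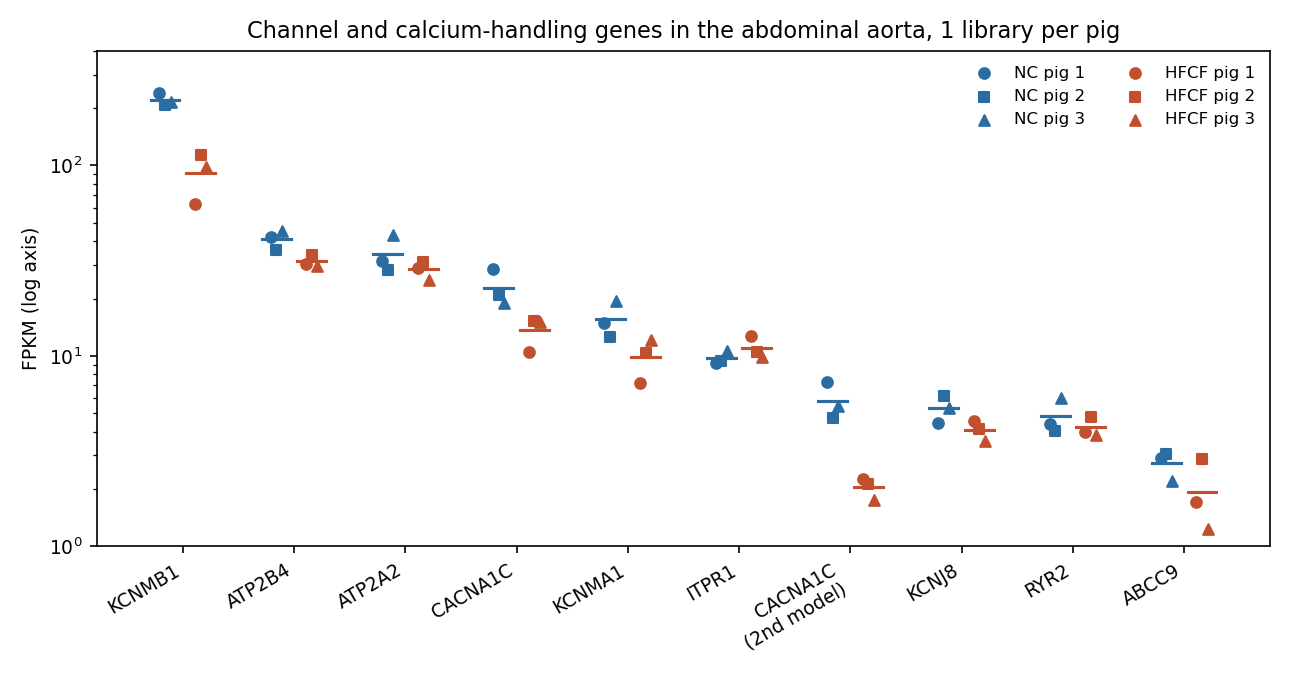
FPKM of each gene (log axis) in the 3 NC and 3 HFCF pigs, ordered by the NC mean, where points are pigs and bars are group means. KCNMB1 stands far above the other genes in both groups, at 221 FPKM in the NC and 91.2 FPKM in the HFCF pigs on average, and the 2 CACNA1C models differ in level.

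The BK channel is built from pore subunits, encoded by KCNMA1, and an accessory beta subunit, encoded by KCNMB1, that raises the calcium sensitivity of the pore in smooth muscle. KCNMB1 (ENSSSCG00000017005) was at 239.8, 207 and 216 FPKM in NC pigs 1, 2 and 3 and at 62.6, 113 and 97.8 FPKM in HFCF pigs 1, 2 and 3. The highest HFCF pig remained well below the lowest NC pig, and HFCF pig 1 was the lowest of all. Its mean fell from 221 ± 16.7 to 91.2 ± 25.9 FPKM (SD, n = 3 per group), 2.42-fold. The log2 fold change was −1.32 (SE 0.23, 95% interval −1.86 to −0.77), with an adjusted p-value of 0.00781 by limma. KCNMB1 was called lower under all 15 alternative settings of the fit, with log2 fold changes from −1.67 to −1.07. Leaving out HFCF pig 1 gave the smallest of these, −1.07, with an adjusted p-value of 0.00775. In NC aorta KCNMB1 ranked 172 by mean FPKM among the tested genes, which places it among the abundant transcripts of the vessel wall.

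KCNMA1 (ENSSSCG00000010325) was at 14.9, 12.5 and 19.4 FPKM in NC pigs 1, 2 and 3 and at 7.22, 10.4 and 12.1 FPKM in HFCF pigs 1, 2 and 3. The groups did not overlap, but the highest HFCF and the lowest NC value were close. Means were 15.6 ± 3.47 and 9.88 ± 2.45 FPKM (SD, n = 3 per group). The log2 fold change of −0.66 (SE 0.25, 95% interval −1.25 to −0.08) did not pass the adjustment over all genes in the deposited scale (adjusted p-value 0.0844, limma). It passed with median-ratio scaling (−1.02, adjusted p-value 0.0280), quantile normalization (−0.90, adjusted p-value 0.0494) and TPM (−0.93, adjusted p-value 0.0450).

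Since FPKM is corrected for exon length, subunit levels can be set against each other within a pig, and such a ratio hardly depends on library scaling. All ratios within a pig are given as ratios of FPKM + 0.1, the scale of the test, and differ slightly from those of the FPKM printed here. The ratio of KCNMB1 to KCNMA1 on this scale was 15.9, 16.4 and 11.1 in NC pigs 1, 2 and 3 and 8.57, 10.8 and 8.05 in HFCF pigs 1, 2 and 3. Beta subunit transcripts thus exceeded pore transcripts in every pig, and the ratio was lower in all HFCF pigs than in any NC pig. The mean log2 ratio differed by −0.65 (HFCF minus NC), with an exact two-sided permutation p of 0.1. This is the smallest p that 3 pigs against 3 allow, and it was 0.5 after adjustment over the 5 pairs compared.

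KCNJ8 encodes the pore and ABCC9 the sulfonylurea receptor subunit of the vascular KATP channel. The genes are neighbours in the RefSeq annotation of Sscrofa11.1. KCNJ8 (ENSSSCG00000000573) was at 4.44, 6.16 and 5.31 FPKM in NC pigs 1, 2 and 3 and at 4.53, 4.13 and 3.58 FPKM in HFCF pigs 1, 2 and 3. HFCF pig 1 lay within the NC range and the other HFCF pigs below it. Its log2 fold change was −0.37 (SE 0.20, 95% interval −0.83 to 0.10, adjusted p-value 0.202, limma). The call depended on the scaling, since KCNJ8 passed with median-ratio scaling (−0.71, adjusted p-value 0.0279) and quantile normalization (−0.78, adjusted p-value 0.0212).

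ABCC9 (ENSSSCG00000000571) was the least abundant member, at 2.92, 3.06 and 2.19 FPKM in NC pigs 1, 2 and 3 and at 1.71, 2.86 and 1.23 FPKM in HFCF pigs 1, 2 and 3. HFCF pig 2 lay inside the NC range, and the spread in the HFCF group was wide. Its log2 fold change of −0.54 (SE 0.33) had a 95% interval from −1.32 to 0.24 and an adjusted p-value of 0.258 by limma. The ABCC9 to KCNJ8 ratio (of FPKM + 0.1) ranged from 0.423 to 0.666 in NC and from 0.361 to 0.701 in HFCF pigs, and the difference in log2 ratio of −0.17 was smaller than the spread between pigs (exact two-sided permutation p = 0.6, adjusted p = 0.75).

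CACNA1C encodes the pore of the L-type calcium channel, the main voltage-gated entry route for calcium in arterial muscle. ENSSSCG00000041764 was at 28.5, 20.8 and 19.0 FPKM in NC pigs 1, 2 and 3 and at 10.5, 15.3 and 15.1 FPKM in HFCF pigs 1, 2 and 3. The groups did not overlap, and the gap between the nearest pigs was small beside the spread within the NC group. Means were 22.8 ± 5.05 and 13.6 ± 2.71 FPKM (SD, n = 3 per group). The log2 fold change was −0.73 (SE 0.22, 95% interval −1.26 to −0.21), with an adjusted p-value of 0.0464 by limma. This call was fragile: it was kept in 6 of the 15 alternative settings and lost when any 1 pig was left out, with adjusted p-values from 0.0195 to 0.137 over all of them. Without NC pig 1, HFCF pig 1, NC pig 2, HFCF pig 2, HFCF pig 3 and NC pig 3 in turn, the adjusted p-values were 0.137, 0.0978, 0.0900, 0.0698, 0.0665 and 0.0547.

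The second model, ENSSSCG00000027725, was less abundant and changed more. It was at 7.31, 4.70 and 5.44 FPKM in NC pigs 1, 2 and 3 and at 2.26, 2.12 and 1.75 FPKM in HFCF pigs 1, 2 and 3, so that every HFCF pig was below 50% of the lowest NC pig. Its mean fell 2.85-fold, from 5.82 ± 1.35 to 2.04 ± 0.27 FPKM (SD, n = 3 per group). The log2 fold change was −1.45 (SE 0.23, 95% interval −1.99 to −0.91) with an adjusted p-value of 0.00562, and it was called under all 15 alternatives. How reads were divided between the models is not given in the sources used here, so the split of CACNA1C signal between them is uncertain.

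RYR2 and ITPR1 encode the channels that release calcium from the sarcoplasmic reticulum, on calcium itself and on inositol trisphosphate respectively. RYR2 (ENSSSCG00000010142) was at 4.40, 4.05 and 6.03 FPKM in NC pigs 1, 2 and 3 and at 4.00, 4.79 and 3.83 FPKM in HFCF pigs 1, 2 and 3. The groups overlapped, with a log2 fold change of −0.18 (SE 0.21, 95% interval −0.68 to 0.32, adjusted p-value 0.559, limma). ITPR1 (ENSSSCG00000023437) was at 9.21, 9.43 and 10.6 FPKM in NC pigs 1, 2 and 3 and at 12.6, 10.5 and 9.86 FPKM in HFCF pigs 1, 2 and 3. It was the only member with a positive estimate, 0.16 (SE 0.16, 95% interval −0.21 to 0.54, adjusted p-value 0.471, limma), and the sign turned with median-ratio scaling (−0.19), quantile normalization (−0.094) and TPM (−0.094). The RYR2 to ITPR1 ratio (of FPKM + 0.1) was 0.435 to 0.572 in NC and 0.322 to 0.463 in HFCF pigs, and the difference in log2 ratio of −0.34 did not reach the threshold (exact two-sided permutation p = 0.2, adjusted p = 0.5).

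ATP2A2 encodes the pump that refills the reticulum, which PLN inhibits, and ATP2B4 a pump that expels calcium across the plasma membrane. ATP2A2 (ENSSSCG00000034386) was at 31.4, 28.3 and 43.2 FPKM in NC pigs 1, 2 and 3 and at 29.0, 31.2 and 25.0 FPKM in HFCF pigs 1, 2 and 3. The groups overlapped, and NC pig 3 was the highest of all. Its log2 fold change was −0.25 (SE 0.19, 95% interval −0.71 to 0.20, adjusted p-value 0.36, limma).

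ATP2B4 (ENSSSCG00000015273) was at 42.3, 35.9 and 45.4 FPKM in NC pigs 1, 2 and 3 and at 30.3, 34.0 and 29.7 FPKM in HFCF pigs 1, 2 and 3. All HFCF values lay below the NC values, with means of 41.2 ± 4.84 and 31.4 ± 2.35 FPKM (SD, n = 3 per group). The log2 fold change of −0.39 (SE 0.15, 95% interval −0.73 to −0.05) had an adjusted p-value of 0.0852 by limma. With median-ratio scaling (−0.74, adjusted p-value 0.0141), quantile normalization (−0.51, adjusted p-value 0.0469) and TPM (−0.65, adjusted p-value 0.0274) it passed the threshold. The ATP2B4 to ATP2A2 ratio (of FPKM + 0.1) ranged from 1.05 to 1.35 in NC and from 1.05 to 1.19 in HFCF pigs (difference in log2 ratio −0.14, exact two-sided permutation p = 0.3, adjusted p = 0.5).

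**Figure D2:**
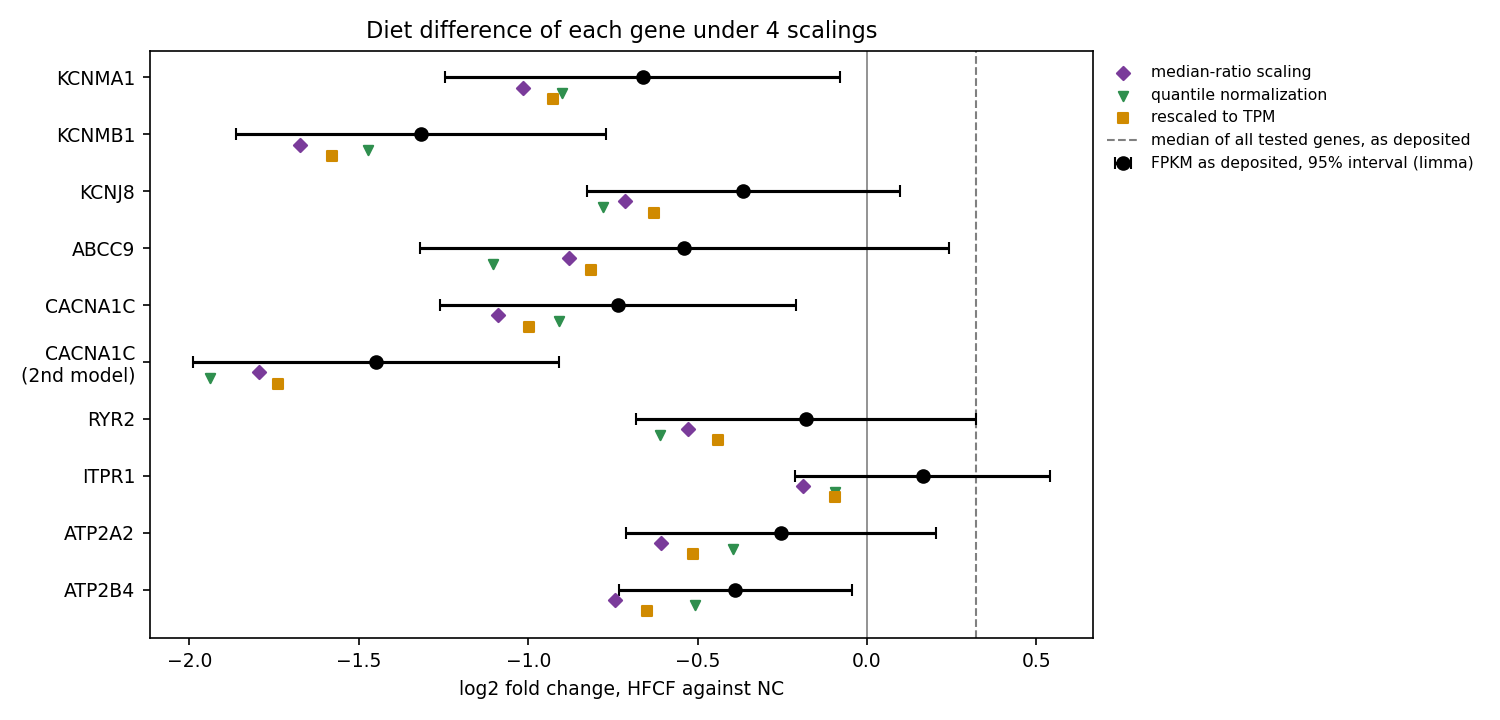
Log2 fold change (HFCF against NC) of each gene with its 95% interval from limma on FPKM as deposited, and the estimates under median-ratio scaling, quantile normalization and TPM as further points. The dashed line marks the median of all tested genes, 0.32, and every interval but those of KCNMB1, KCNMA1, ATP2B4 and both CACNA1C models includes 0.

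By mean FPKM in the NC pigs the order was KCNMB1, ATP2B4, ATP2A2, CACNA1C (ENSSSCG00000041764), KCNMA1, ITPR1, the second CACNA1C model, KCNJ8, RYR2 and ABCC9. The ranges of neighbours in this order overlapped from ATP2B4 through KCNMA1 and from the second CACNA1C model through RYR2. In the HFCF pigs ITPR1 stood above KCNMA1, with overlapping ranges, and the second CACNA1C model stood behind RYR2 and KCNJ8, without overlap. The CACNA1C to KCNMA1 ratio, which sets calcium entry against BK pore transcripts (FPKM + 0.1), was 0.982 to 1.901 in NC and 1.25 to 1.47 in HFCF pigs (difference in log2 ratio −0.07, exact two-sided permutation p = 0.8, adjusted p = 0.8). With the second CACNA1C model in its place, an alternative chosen after seeing the data, the difference was −0.79 (exact two-sided permutation p = 0.2).

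Most contractile smooth muscle markers were lower in the HFCF group. Of ACTA2, MYH11, TAGLN, CNN1, SMTN, LMOD1, SYNPO2 and DES, all 8 had negative estimates, 5 were called lower and 6 did not overlap between the groups, with a median log2 fold change of −1.03. Their summed level was 15947 to 22733 FPKM in NC and 8032 to 12926 FPKM in HFCF pigs, lowest in HFCF pig 1, and none was at 0. The number called ranged from 1 to 6 over the 15 alternatives, with 1 when NC pig 1 was left out. To set each member beside this signal, its log2(FPKM + 0.1) minus the mean log2(FPKM + 0.1) of the 8 markers was compared between the groups.

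Relative to the markers, the member with the largest difference was ITPR1. Its log2 ratio to the markers was −7.18, −6.90 and −6.59 in NC pigs 1, 2 and 3 and −5.18, −5.76 and −6.25 in HFCF pigs 1, 2 and 3, a difference of 1.16 without overlap (exact two-sided permutation p = 0.1, the smallest possible, adjusted p = 0.333 over 10 rows). The differences of RYR2 (0.82), ATP2A2 (0.74), KCNJ8 (0.63), ATP2B4 (0.61), ABCC9 (0.46), KCNMA1 (0.33) and CACNA1C ENSSSCG00000041764 (0.26) were also positive, with overlapping groups. KCNMB1 (−0.32, exact two-sided permutation p = 0.3) and the second CACNA1C model (−0.45, exact two-sided permutation p = 0.2) had negative differences. No sign changed under the 9 alternatives, among them MYH11 as the only reference, and no p passed the threshold, which 3 pigs against 3 cannot reach.

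**Figure D3:**
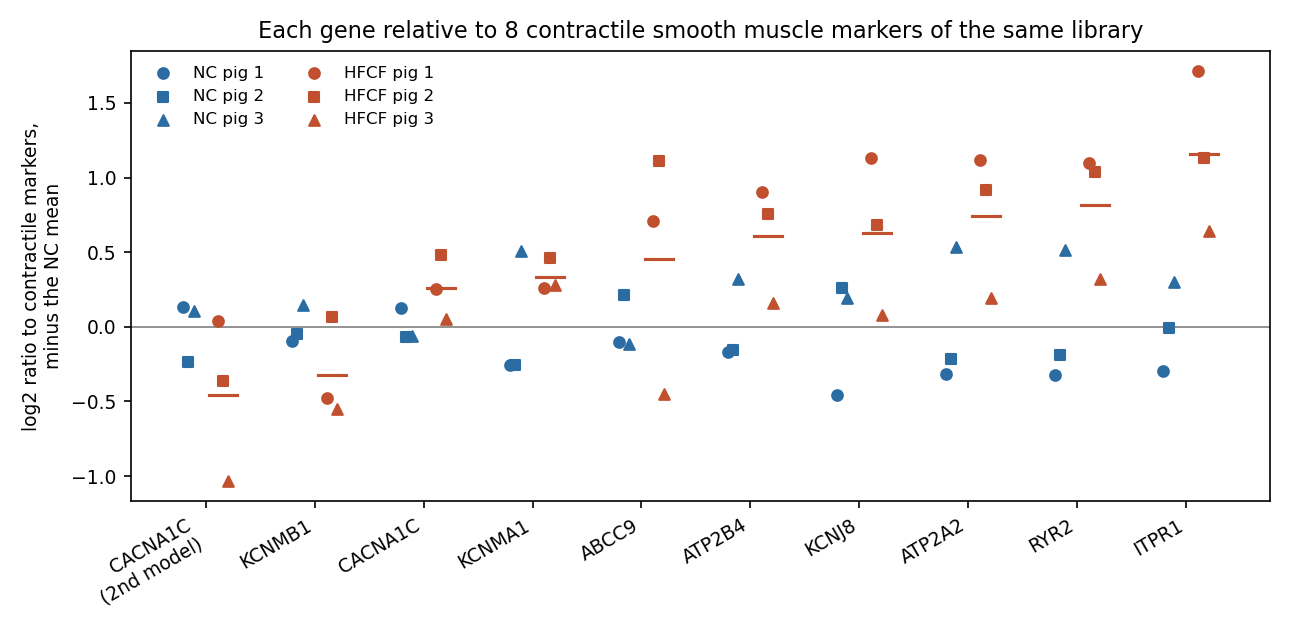
Log2 ratio of each gene to the mean of the 8 contractile markers within each pig, minus the NC mean of that gene, where points are pigs and the bar is the HFCF mean. The HFCF pigs of ITPR1 lie above all NC pigs, with a mean difference of 1.16, and only KCNMB1 and the second CACNA1C model have HFCF means below 0. The mean of the markers itself differed by −0.997 (HFCF minus NC), so 0 marks a gene that fell as much as the markers.

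Markers of other cells also moved with diet. All 8 macrophage markers, CD68 and CD163 among them, were called higher, with a summed level of 34.3 to 37.9 FPKM in NC and 424.7 to 1034 FPKM in HFCF pigs, and none was at 0. All 5 T cell markers had positive estimates (sum 0.51 to 0.87 FPKM in NC, 2.41 to 8.92 FPKM in HFCF). By limma 2 of them were called higher, and 4 were higher at an unadjusted p-value under 0.05. Red blood cell markers were not called in any of the 2 tested of 3 rows, but their sum reached 2883 FPKM in HFCF pig 1, against 22.0 to 178.5 FPKM in NC pigs and 85.6 and 95.5 FPKM in the other HFCF pigs. HFCF pig 1 also had the highest macrophage sum. Their part in the lower levels of the members was not tested.

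Among the remaining marker lists, few genes were called. Endothelial markers had 0 of 6 called (sum 112.7 to 195.2 FPKM in NC, 94.98 to 226.4 FPKM in HFCF), and fibroblast markers 1 of 7, LUM, called higher (sum 3473 to 6538 FPKM in NC, 3586 to 6424 FPKM in HFCF). Of the 7 fibroblast estimates 4 were negative, with a median log2 fold change of −0.095. Among adipocyte markers all 6 estimates were negative, with a median log2 fold change of −1.24, and 1 of 6, PLIN4, was called lower (sum 50.1 to 300.8 FPKM in NC, 74.8 to 102.3 FPKM in HFCF). Skeletal muscle markers had 0 of 4 tested genes called (sum 0.97 to 5.15 FPKM in NC, 0.67 to 11.8 FPKM in HFCF), and Schwann cell and nerve markers also 0 of 4 (sum 4.24 to 19.6 FPKM in NC, 6.49 to 20.8 FPKM in HFCF). At an unadjusted p-value under 0.05 by limma, 1 endothelial and 1 Schwann cell and nerve marker were higher, 1 skeletal muscle marker lower and no red blood cell marker past it. Of 3 tested cardiac muscle markers, TNNI3 (means 0.469 FPKM in NC, 1.07 FPKM in HFCF) and MYBPC3 (0.0263 and 0.287 FPKM) were called higher from very low levels. ACTN2 went the other way (3.03 and 1.07 FPKM, log2 fold change −1.34) and was not called (adjusted p-value 0.214, limma). The sum of the whole list was 1.24 to 4.94 FPKM in NC and 1.93 to 3.44 FPKM in HFCF pigs.

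Other genes of smooth muscle ion transport did not move one way. A list of 100 further channels, pumps, exchangers and calcium regulators had 90 rows, of which 79 passed the filter on low values. Of these, 5 were called lower and 11 higher, 12 lay wholly lower and 15 wholly higher in the HFCF group, and the median log2 fold change was 0.19, or −0.13 relative to all genes. Over all tested genes 6.16% were called lower, 22.8% higher, 12.1% lay wholly lower and 36.1% wholly higher, so the list held about the general share of lower genes and a smaller share of higher ones. The calls were split over the functional groups. Voltage-gated calcium channel subunits had 1 lower and 1 higher of 8 tested, and release channels and their regulators 1 lower and 1 higher of 7. TRP, polycystin and mechanosensitive channels had 1 lower and 3 higher of 9, and pumps and exchangers 3 higher of 10. Chloride channels had 2 higher of 4, and voltage-gated potassium channels 1 higher of 11. One gene was called lower among the 7 calcium buffers of the reticulum and 1 among the 8 genes of the group of kinases and the sodium pump. By limma no gene was called among the 8 inward rectifier and two-pore potassium channels, the 5 genes of store-operated entry, or the single tested partners of the BK and KATP channels. At an unadjusted p-value under 0.05, 2 of the inward rectifier and two-pore channels and 1 gene of store-operated entry were higher, and neither partner passed.

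Among the genes of the wider list, the largest decrease was that of CASQ2, calsequestrin, which buffers calcium inside the reticulum. CASQ2 was at 63.1, 56.4 and 45.7 FPKM in NC pigs 1, 2 and 3 and at 12.4, 13.4 and 16.8 FPKM in HFCF pigs 1, 2 and 3. The groups were far apart, and the mean fell 3.87-fold from 55.1 ± 8.79 to 14.2 ± 2.32 FPKM (SD, n = 3 per group). Its log2 fold change was −1.95 (SE 0.18, adjusted p-value 0.00118, limma). IRAG1, a substrate of cGMP-dependent kinase that binds the inositol trisphosphate receptor, fell from 65.3 ± 15.4 to 29.2 ± 4.51 FPKM (log2 fold change −1.14, SE 0.22, adjusted p-value 0.0106, limma). PKD1, polycystin, fell from 72.6 ± 7.10 to 33.0 ± 6.56 FPKM (log2 fold change −1.15, adjusted p-value 0.00597, limma). These 3 genes were called in all 15 alternatives.

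CACNB2, a beta subunit of voltage-gated calcium channels, was at 2.37, 2.11 and 1.64 FPKM in NC pigs 1, 2 and 3 and at 0.874, 0.763 and 1.14 FPKM in HFCF pigs 1, 2 and 3. It fell with a log2 fold change of −1.06 (adjusted p-value 0.0253, limma). MYLK, myosin light chain kinase, which starts contraction, fell from 87.4 ± 21.3 to 47.3 ± 7.48 FPKM (log2 fold change −0.87, adjusted p-value 0.0279, limma). Both were called in 10 of the 15 alternatives, and without HFCF pig 1 the adjusted p-values were 0.0532 for CACNB2 and 0.0569 for MYLK.

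Genes of the list that rose included channels and transporters found in many cell types. TRPV2, a cation channel known also from macrophages, was at 1.58, 1.93 and 1.60 FPKM in NC pigs 1, 2 and 3 and at 30.6, 11.3 and 10.23 FPKM in HFCF pigs 1, 2 and 3. It rose most of the list, with a log2 fold change of 3.09 (SE 0.41, adjusted p-value 0.00319, limma), and HFCF pig 1 was the highest. That pig had the highest macrophage sum, but also the highest T cell, endothelial and red blood cell sums. The part of any cell type in the rise of TRPV2 was not tested. ATP2B1, a plasma membrane calcium pump of the same family as ATP2B4, rose from 0.588 ± 0.233 to 4.28 ± 1.63 FPKM (log2 fold change 2.67, adjusted p-value 0.00409, limma). The scarce pumps ATP2B2 (0.170 and 0.456 FPKM in NC and HFCF pigs, log2 fold change 1.01, adjusted p-value 0.0655, limma) and ATP2B3 (0.0714 and 0.147 FPKM, log2 fold change 0.55, adjusted p-value 0.346, limma) also had positive estimates without passing the threshold. They are named only to complete the family. ATP2B4 was thus the only one of the 4 with a negative estimate, and ATP2B1 remained below the 31.4 FPKM of ATP2B4.

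SLC8B1, the sodium-calcium exchanger of mitochondria, was at 1.60, 1.39 and 2.38 FPKM in NC pigs 1, 2 and 3 and at 16.6, 9.75 and 5.30 FPKM in HFCF pigs 1, 2 and 3 (log2 fold change 2.38, adjusted p-value 0.0079, limma). TRPM7, a channel with a kinase domain, rose from 1.70 ± 0.44 to 5.18 ± 0.52 FPKM and CLIC4, an intracellular chloride channel protein, from 23.4 ± 3.72 to 48.9 ± 8.86 FPKM (adjusted p-values 0.00532 and 0.00913, limma). TRPV2, ATP2B1, SLC8B1, TRPM7 and CLIC4 were called in all 15 alternatives. CACNA2D1, an accessory subunit of calcium channels (log2 fold change 1.01, adjusted p-value 0.023, limma), SRI, sorcin, a regulator of ryanodine receptors (0.82, adjusted p-value 0.0196, limma), and CLCN7, a lysosomal chloride transporter (0.79, adjusted p-value 0.0439, limma), were called in 8, 10 and 4 of the 15. None of these 3 was called under median-ratio scaling, quantile normalization or TPM. The other 3 genes called higher, KCNA3, TRPC1 and SLC8A3, had a mean below 1 FPKM.

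**Figure D4:**
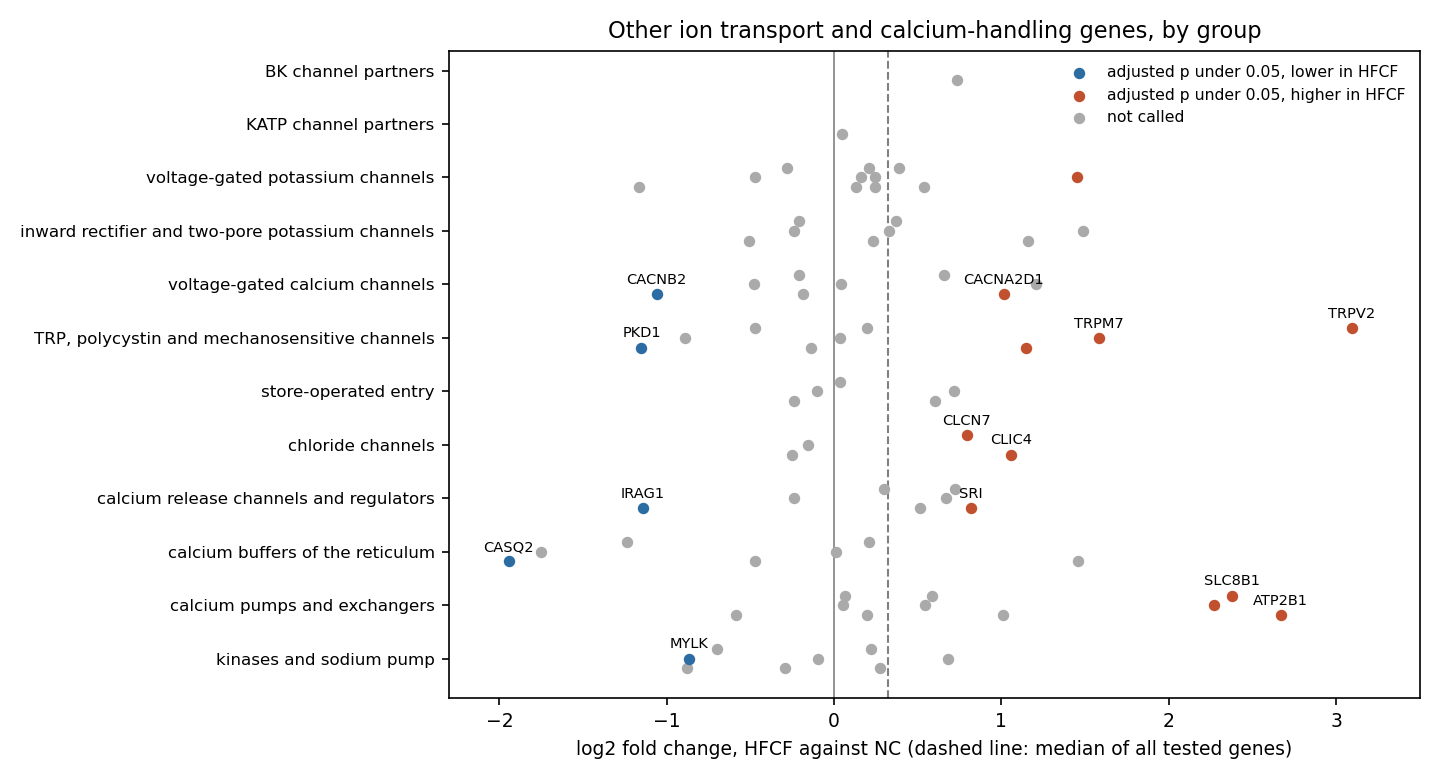
Log2 fold change (HFCF against NC) of the 79 tested genes of the wider list by functional group, with genes called lower in blue, called higher in red and not called in grey. Among the 5 genes called lower CASQ2 lies farthest out, at −1.95, and among the 11 called higher TRPV2, at 3.09.

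The most abundant gene of most functional groups was not called. CACNA1H, a T-type calcium channel, was at 71.8 ± 11.7 FPKM in NC and 63.9 ± 16.2 FPKM in HFCF pigs (adjusted p-value 0.567, limma). KCNAB1, a potassium channel beta subunit, was at 28.2 ± 3.84 and 31.3 ± 7.34 FPKM (adjusted p-value 0.678, limma), and CALR, calreticulin, a buffer of the reticulum, at 156 ± 15.9 and 157 ± 13.1 FPKM (adjusted p-value 0.965, limma). These values give groups that overlap widely. ORAI3, a store-operated channel, was at 21.9 ± 4.22 and 22.2 ± 1.15 FPKM (adjusted p-value 0.888, limma), and KCNK6 at 2.58 ± 0.44 and 3.35 ± 0.53 FPKM (adjusted p-value 0.245, limma). SLC8A1, the sodium-calcium exchanger of the plasma membrane, was at 18.4 ± 3.47 and 12.4 ± 3.80 FPKM (log2 fold change −0.59, adjusted p-value 0.12, limma). It passed the threshold in 3 of the 15 alternatives, with median-ratio scaling (−0.94, adjusted p-value 0.0341), with TPM (−0.85, adjusted p-value 0.0458) and without HFCF pig 1 (−0.82, adjusted p-value 0.0355). The partners of the member channels were scarce, with KCNMB4 at 0.446 and 0.766 FPKM and ABCC8 at 0.188 and 0.205 FPKM in NC and HFCF pigs (adjusted p-values 0.196 and 0.96, limma).

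The pathway annotation deposited with the values, looked at after the values were seen, puts 6 members (KCNMA1, KCNMB1, KCNJ8, ITPR1, ATP2A2 and ATP2B4) in cGMP-PKG signaling, the route by which nitric oxide relaxes arteries. Of the 127 other tested genes of this pathway, 17 were called lower and 20 higher, with a median log2 fold change of −0.06. Vascular smooth muscle contraction holds 3 members (KCNMA1, KCNMB1 and ITPR1), and of its 92 other tested genes 12 were called lower and 13 higher, with a median of −0.13. Both medians lie below the 0.32 of all genes. Over all tested genes 6.16% were called lower and 22.8% higher. Calls in both directions were made in either pathway, with a larger share lower and a smaller share higher than over all genes.

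The depth behind these values is not known, since the deposited table holds FPKM. The most frequent ratio between FPKM values under 0.3 of genes with 1 transcript gave rough relative depths of 1 to 1.37 in the NC and 1.03 to 1.06 in the HFCF libraries, with NC pig 1 set to 1. In the other 5 libraries 1.35% to 2.91% of these genes fell in the interval (0.01 on the log2 scale) that set this estimate. FPKM values summed to 272207 to 287141 in NC and 330222 to 338690 in HFCF libraries, and 39.9% to 43.9% of genes were at 0.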

How the data were processed

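Paired-end reads from abdominal aorta total RNA (3 NC and 3 HFCF pigs) were trimmed with cutadapt 1.9, aligned with HISAT2 and quantified with StringTie by the authors, who deposited FPKM values for 30477 genes, used here as deposited, with 0.0001 read as 0. The pig build named in the methods differs from the reference table at hand (Sscrofa11.1), so no coordinates are given, and 13993 rows carried no symbol of their own.

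Values were analysed as log2(FPKM + 0.1), a scale that understates the change of low genes, for the 15384 genes whose mean FPKM reached 0.1. Diet was the only factor in limma 3.58.1 (R 4.3.3, eBayes with a variance trend, Benjamini-Hochberg adjustment over all tested genes), with calls at an adjusted p-value under 0.05. Ratios within a pig were compared by exact two-sided permutation (scipy 1.17.1). The limma p-values set the difference in means against a variance between 3 pigs per group that is drawn toward the trend of all tested genes. The permutation p-values rest on the 6 pigs alone.

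The members and lists were chosen with earlier results of these data known. Of the wider list, genes with an adjusted p-value under 0.05 and a mean of at least 1 FPKM and the most abundant gene of each functional group were named. The result of 1 gene under this rule is not reported here. Alternatives were pseudocounts of 1 and 0.01, no filter, a mean of at least 1 FPKM, median-ratio scaling, quantile normalization, TPM, eBayes without a trend, a replicate block, each pig left out, and the thresholds of the study. PLN and protein and promoter sequences were not analysed here.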

Additional observations from a re-analysis of the deposited data

How the results depend on the processing

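On the deposited scale, 948 of 15384 tested genes were called lower and 3505 higher. With median-ratio scaling, quantile normalization and TPM, 15360, 15384 and 17531 genes were tested. Of these, 1982, 1782 and 1539 were called lower and 2035, 1748 and 2146 higher. The calls among the 8 members were then 4, 4 and 3 lower, and among the 10 rows with both CACNA1C models 6, 6 and 5. The wider list had 10 lower with median-ratio scaling and with quantile normalization, and 6, 5 and 6 higher with the 3 scalings. KCNMA1 passed at −1.02, −0.90 and −0.93, ATP2B4 at −0.74, −0.51 and −0.65, and KCNJ8 with the first 2 at −0.71 and −0.78. Signs turned for ITPR1 (−0.19, −0.094 and −0.094), ABCC8 (−0.17, −0.37 and −0.15), KCNAB1 (−0.23, −0.0082 and −0.13), ORAI3 (−0.32, −0.13 and −0.22) and CALR (−0.35, −0.15 and −0.25), and with quantile normalization for KCNK6 (−0.16), none of them past the threshold. These 3 scalings lower the median of all genes from 0.32 to −0.01, −0.07 and 0.07.

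CACNA1C (ENSSSCG00000041764) kept its log2 fold change of −0.73 but not its call without a variance trend (adjusted p-value 0.0768) and without a filter (adjusted p-value 0.0652), and leaving out 1 pig gave −0.85 to −0.56. Leaving out 1 pig gave 442 to 786 genes lower and 1979 to 2815 higher over all genes, and 3 to 7 lower and 5 to 10 higher in the wider list, lowest in both directions without NC pig 1. In the wider list, 7 and 6 were higher without HFCF pig 2 and NC pig 2. It turned the sign of ABCC8 (−0.47 to 0.52), CACNA1H (−0.36 to 0.012), ORAI3 (−0.10 to 0.18), CALR (−0.041 to 0.092), the ABCC9 to KCNJ8 ratio (−0.47 to 0.0041) and the CACNA1C to KCNMA1 ratio (−0.36 to 0.12), none of them called. KCNMB1, the second CACNA1C model, CASQ2, PKD1 and IRAG1 kept their calls in all 15 settings.

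Same-numbered pigs did not deviate together (correlations from −0.08 to 0.02, against −0.07 to 0.13 between pigs of different numbers). The numbers thus give no sign of a pairing, which 3 pigs per group cannot exclude. With a replicate block, 540 genes were lower and 2232 higher, the wider list had 7 higher, and CACNA1C (ENSSSCG00000041764) stood at −0.73 (adjusted p-value 0.112). The thresholds of the study take a change of means past 2-fold together with an unadjusted p below 0.05. By them 1 of the 8 members and 2 of the 10 rows were lower, and the share of all genes is not given here. The PLN to ATP2A2 ratio was not run, since PLN has no row here. With 3 pigs per group and no read counts, a missed threshold does not show an equal level.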
